A study of Mus musculus with 12 samples.

Results

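The subunits of the mitochondrial respiratory chain that are encoded in the nucleus were followed at the mRNA level in bulk RNA-seq of 12 mouse tumours. Members were chosen by gene name, as every gene of the deposited table whose symbol carried the prefix of a complex I, II, III, IV or V subunit or of cytochrome c, leaving out 2 rows that carry pseudogene names. That gave 89 of 25116 genes, of which 38 belonged to complex I, 4 to complex II, 9 to complex III, 20 to complex IV, 17 to complex V and 1 was the electron carrier cytochrome c. Ndufa4 and Ndufa4l2 carry a complex I name and are counted here with complex IV, where their proteins are known to sit. The rule reads names only. It also took in 4 rows, Ndufs6b, Ndufb4c, Ndufa11b and Cox6c2, that GENCODE M21 annotates as processed pseudogenes, and none of them had counts enough to be tested.

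The tumours were allografts of E0771, a triple-negative mouse breast cancer line, grown in Tie2CreER;ERKi C57BL/6J mice and collected on day 22. All hosts carried both alleles, a tamoxifen-activated Cre recombinase under the endothelial Tie2 promoter and a knock-in gene for endorepellin, the C-terminal fragment of perlecan, which is known to restrain vessel growth. Mice given tamoxifen supplied 7 tumours (induced) and mice given the control injection 5 tumours (control). The Tie2 promoter is also known to be active in some blood cells, and only host cells carry the alleles. The design addresses how endorepellin made in the vasculature affects the tumour, and the values below describe the respiratory chain genes in that setting. The labels do not say whether the tumours came from separate mice, so the spread is that between these samples.

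The respiratory chain moves electrons from NADH (complex I) and succinate (complex II) through ubiquinone to complex III, cytochrome c and complex IV, which reduces oxygen, and complex V uses the resulting proton gradient to make ATP. Complexes I, III, IV and V also hold a few subunits that are made from mitochondrial DNA, while every subunit of complex II is nuclear. Some complex IV subunits exist as a ubiquitous form and as a form of heart and skeletal muscle, lung or oxygen-starved cells.

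Each library held 18993192 to 28372821 counts, and the members together took 0.774% (control 2) to 1.10% (control 4) of them. The share was 0.937% ± 0.126 (SD, n = 5) in control and 0.909% ± 0.0729 (SD, n = 7) in induced tumours, with overlapping ranges. Of the 89 members 81 passed the filter on low counts. The 8 that did not were the processed pseudogenes Ndufs6b, Ndufb4c, Ndufa11b and Cox6c2 and the complex IV tissue forms Cox6b2, Cox7b2, Cox8b and Cox4i2. The labelled tumour cell type was checked with 4 epithelial markers (Krt8, Krt18, Krt7 and Epcam), and their summed level was only 1.16 to 4.37 CPM over the 12 tumours, with 0 to 2 of them at 0 in a tumour. Levels are given in CPM, with libraries scaled by their TMM-corrected totals.

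No respiratory chain gene differed between induced and control tumours by the test. By edgeR's quasi-likelihood test 0 of 81 members had an adjusted p under 0.05, as did 0% of all 15199 genes tested. At an unadjusted p under 0.05 there were 0 members in either direction, against 0.592% of all genes higher and 1.54% lower. For no member were the groups free of overlap, against 0.0197% of all genes with induced wholly higher and 0.0395% with induced wholly lower. DESeq2 and limma-voom also called 0 members. At an unadjusted p under 0.05 DESeq2 held 0 members (0.711% of all genes higher and 1.86% lower). Limma-voom with quality weights held 0 higher (2.91% of all genes) and 4 lower (3.64% of all genes), which were Ndufb5, Ndufs8, Sdhb and Atp5o. Fold changes ran from -0.66 to 0.32 on the log2 scale, with a median of -0.0071 beside -0.00083 over all genes, and their median standard error (SE) was 0.18. Of the 81 members 35 were higher and 46 lower in induced tumours, which is 43.2% higher beside 49.8% of all genes. This split turned on single tumours. Without control 2 it was 9 higher and 72 lower, without control 1 it was 12 higher and 70 lower, and without control 4 it was 65 higher and 17 lower. In bulk tumours, fewer cells of a type and less RNA per cell cannot be told apart.

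**Figure D1:**
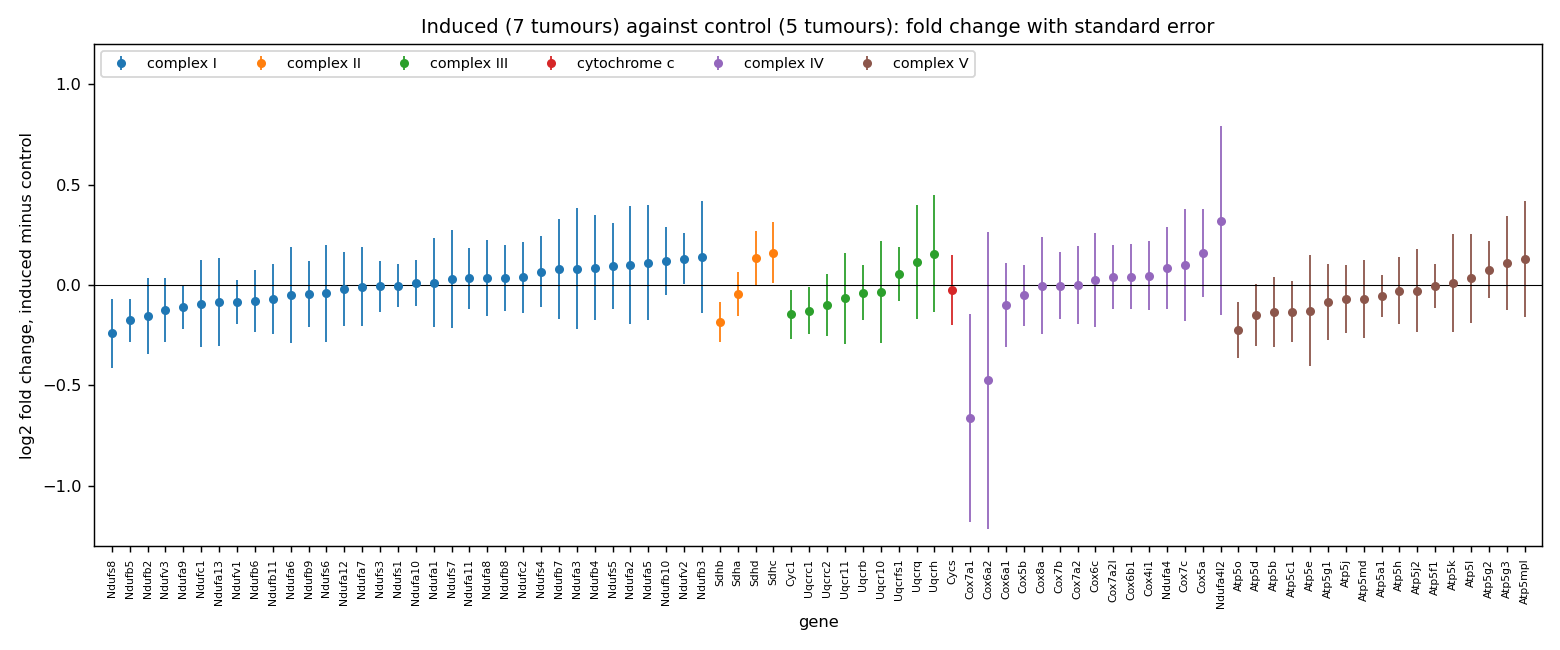
Log2 fold change (induced minus control, vertical axis) of 80 of the 81 tested members, ordered by complex and by size, with the standard error of the edgeR fit as bars. Most points lie within 1 standard error of 0, and Cox7a1 (-0.66) and Cox6a2 (-0.47) have the widest bars.

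Complex I takes electrons from NADH through a chain of iron-sulphur clusters in 7 nuclear-encoded core subunits. Of its 35 tested members 17 were higher and 18 lower in the induced group, with a median log2 fold change of -0.00044. Ndufs1, which holds several of the clusters, was at 102, 114, 90.5, 79.0 and 88.1 CPM in control tumours 1 to 5 and at 83.5 to 111 CPM (median 90.6) in induced tumours. Its groups overlapped over nearly the whole range, and the log2 fold change was -0.0033 (SE 0.11). Ndufs7, a core subunit at the ubiquinone pocket, was at 50.8, 50.6, 99.5, 121 and 90.2 CPM in control and 50.7 to 102 CPM (median 91.9) in induced tumours. Controls 1 and 2 were its low controls, and the log2 fold change was 0.03 (SE 0.25). Ndufv1, which binds NADH and FMN, was at 81.6, 84.5, 84.6, 97.9 and 102 CPM in control and 68.6 to 98.1 CPM (median 89.8) in induced tumours, with a log2 fold change of -0.08 (SE 0.11).

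The complex I genes with the smallest unadjusted p were lower in induced tumours without passing the test. Ndufb5, an accessory subunit of the membrane arm, was at 47.8, 48.2, 60.3, 69.0 and 67.4 CPM in control and 47.5 to 56.6 CPM (median 51.1) in induced tumours. Controls 3, 4 and 5 lay above all 7 induced tumours, while controls 1 and 2 lay among them. The log2 fold change was -0.17 (SE 0.11, edgeR unadjusted p = 0.124, adjusted p = 0.999886). Ndufs8, an iron-sulphur subunit of the core, was at 45.7, 36.1, 31.9, 46.1 and 53.6 CPM in control and 25.4 to 44.8 CPM (median 38.2) in induced tumours, a log2 fold change of -0.24 (SE 0.17, unadjusted p = 0.183). On the other side, Ndufv2, a core subunit of the NADH-binding arm, had a log2 fold change of 0.13 (SE 0.13) and the accessory subunit Ndufb10 one of 0.12 (SE 0.17).

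Complex II links the respiratory chain to the citric acid cycle by oxidising succinate. Its 2 catalytic subunits were lower and its 2 membrane anchors higher in the induced group, and no gene of the complex passed the test. Sdhb, the iron-sulphur subunit, had the smallest p of all members and lies on chromosome 4 from 140961203 to 140979193 (GRCm38). It was at 106, 102, 104, 121 and 131 CPM in control and 84.5 to 114 CPM (median 98.8) in induced tumours. Controls 4 and 5 lay above all induced tumours, and the log2 fold change was -0.18 (SE 0.10, edgeR unadjusted p = 0.0877, adjusted p = 0.999886). Sdha, the flavoprotein that binds succinate, was at 156, 152, 127, 123 and 137 CPM in control and 114 to 165 CPM (median 135) in induced tumours, a log2 fold change of -0.05 (SE 0.11). Of the anchors, Sdhc was at 81.6, 79.1, 115, 111 and 104 CPM in control and 79.8 to 132 CPM (median 112) in induced tumours (log2 fold change 0.16, SE 0.15). Sdhd, the other anchor, was at 120.5, 121, 174, 143 and 124 CPM in control and 115 to 193 CPM (median 152) in induced tumours (0.13, SE 0.14). The anchors and the catalytic pair did not share an order of tumours: control 1 was the second highest tumour for Sdha and the third lowest for Sdhc.

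Of the 9 genes of complex III, which passes electrons from ubiquinol to cytochrome c, 3 were higher and 6 lower in induced tumours, with a median log2 fold change of -0.04. Cyc1, which carries haem c1, was at 125, 104, 115, 145 and 151 CPM in control and 99.6 to 143 CPM (median 108) in induced tumours, a log2 fold change of -0.15 (SE 0.12). Uqcrfs1, the Rieske iron-sulphur protein, was at 74.3, 80.8, 109, 113 and 98.4 CPM in control and 75.2 to 119 CPM (median 102) in induced tumours (0.06, SE 0.14). Uqcrc1, a core protein outside the electron path, was at 155, 145, 128, 152 and 177 CPM in control and 108 to 161 CPM (median 147) in induced tumours (-0.13, SE 0.12). All of these ranges overlapped. Cycs, the soluble carrier that also takes part in apoptosis, was at 175, 123, 207, 208 and 195 CPM in control and 116 to 225 CPM (median 189) in induced tumours, a log2 fold change of -0.03 (SE 0.17).

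In complex IV 8 of 15 tested members had higher means after induction and 7 lower ones, with a median log2 fold change of 0.03. Cox4i1, a ubiquitous subunit that binds adenine nucleotides, was at 264, 267, 383, 469 and 396 CPM in control and 272 to 453 CPM (median 378) in induced tumours (0.05, SE 0.17). Cox5a, of the same complex, was at 72.0, 56.2, 116, 107 and 85.3 CPM in control and 60.9 to 119 CPM (median 108) in induced tumours (0.16, SE 0.22). Cox6c, a small membrane subunit, was at 93.3, 97.2, 180.4, 209 and 156 CPM in control and 90.5 to 182 CPM (median 165) in induced tumours (0.03, SE 0.23). In all of these, controls 1 and 2 were the lowest controls and the induced tumours covered nearly the whole range of the controls.

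Complex V, the ATP synthase, had 5 members higher and 12 lower in induced tumours, with a median log2 fold change of -0.05. All 5 genes of the catalytic F1 head were lower, by fold changes from -0.15 to -0.05, and none passed the test. Atp5b, the catalytic beta subunit, lies on chromosome 10 from 128083273 to 128090391 (GRCm38) and had the largest CPM of the members. It was at 1249.7, 1104, 882, 969 and 1164 CPM in control and 714 to 1266 CPM (median 1078) in induced tumours, a log2 fold change of -0.13 (SE 0.18). Atp5a1, the alpha subunit, was at 652, 584, 563, 539 and 602 CPM in control and 477 to 661 CPM (median 599) in induced tumours (-0.05, SE 0.10). Atp5c1, the rotating gamma subunit, was at 191, 172, 146, 181 and 209 CPM in control and 122 to 195 CPM (median 188) in induced tumours (-0.13, SE 0.15). For these F1 genes induced 1, 2 and 6 were the lowest tumours. Atp5o, part of the stalk that holds the head still, was at 100.02, 92.8, 94.6, 149 and 131 CPM in control and 83.6 to 118 CPM (median 91.7) in induced tumours, a log2 fold change of -0.23 (SE 0.14, edgeR unadjusted p = 0.131). The proton-carrying c-ring is built from 1 protein encoded by 3 genes, whose log2 fold changes were -0.08 for Atp5g1, 0.08 for Atp5g2 and 0.11 for Atp5g3 (SE 0.19, 0.14 and 0.23).

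Most members had their lowest levels in the same 4 tumours. Earlier results of these data had set control 1, control 2, induced 3 and induced 4 apart from the other 8 tumours. For 57 of 81 members (70.4%) these were the 4 lowest tumours, beside 15.1% of all genes tested. They were the 4 highest for 2 members, Ndufs1 and Sdha, beside 12% of all genes. The median over members of log2 CPM minus the gene's mean was -0.34 in control 1, -0.46 in control 2, 0.18 in control 3, 0.41 in control 4 and 0.16 in control 5. In induced tumours 1 to 7 it was 0.05, 0.19, -0.36, -0.40, 0.17, 0.12 and 0.27. Control 2 was the lowest tumour for 41 members and control 4 the highest for 45. Each group held 2 of the low tumours, so the low level did not follow the tamoxifen label. Without these 4 tumours 13 members were higher in the induced group, 68 were lower and 0 were called. At an unadjusted p under 0.05 that edgeR fit held 0 of 81 members higher (1.7% of all genes). It held 4 lower (1.99% of all genes), which were Ndufb11, Ndufb2, Ndufb5 and Sdhb.

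Control 1, control 2, induced 3 and induced 4 were the 4 lowest tumours for 28 of 35 members of complex I, 11 of 15 of complex IV, 6 of 9 of complex III, 10 of 17 of complex V, 2 of 4 of complex II and not for Cycs. The shares were not tested against each other. Outside this shared order were the complex II pair Sdha and Sdhb, the complex III genes Cyc1, Uqcrc1 and Uqcrc2, and the complex I core genes Ndufs1, Ndufs8 and Ndufv1. Of the accessory genes of complex I, Ndufa9, Ndufb5, Ndufb6 and Ndufv3 also lay outside it. So did Atp5a1, Atp5b, Atp5c1 and Atp5d of the F1 head, Atp5g1 and Atp5g2 of the c-ring, the stalk gene Atp5o, and Cox6a2, Cox7a1, Cox7a2l and Ndufa4l2 of complex IV. Among the genes inside it were both complex II anchors, Ndufs7, Uqcrfs1, Uqcrq, Cox4i1, Cox5a, Cox6c and Atp5g3. Uqcrq, a small subunit at the ubiquinone-binding part of complex III, was at 101, 84.3, 200.2, 249 and 179 CPM in control tumours 1 to 5. In induced tumours 1 to 7 it was at 184, 213, 97.2, 111, 185, 220.0 and 223 CPM, so its highest tumour held 2.95 times its lowest. For Atp5a1 that ratio was 1.39.

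**Figure D2:**
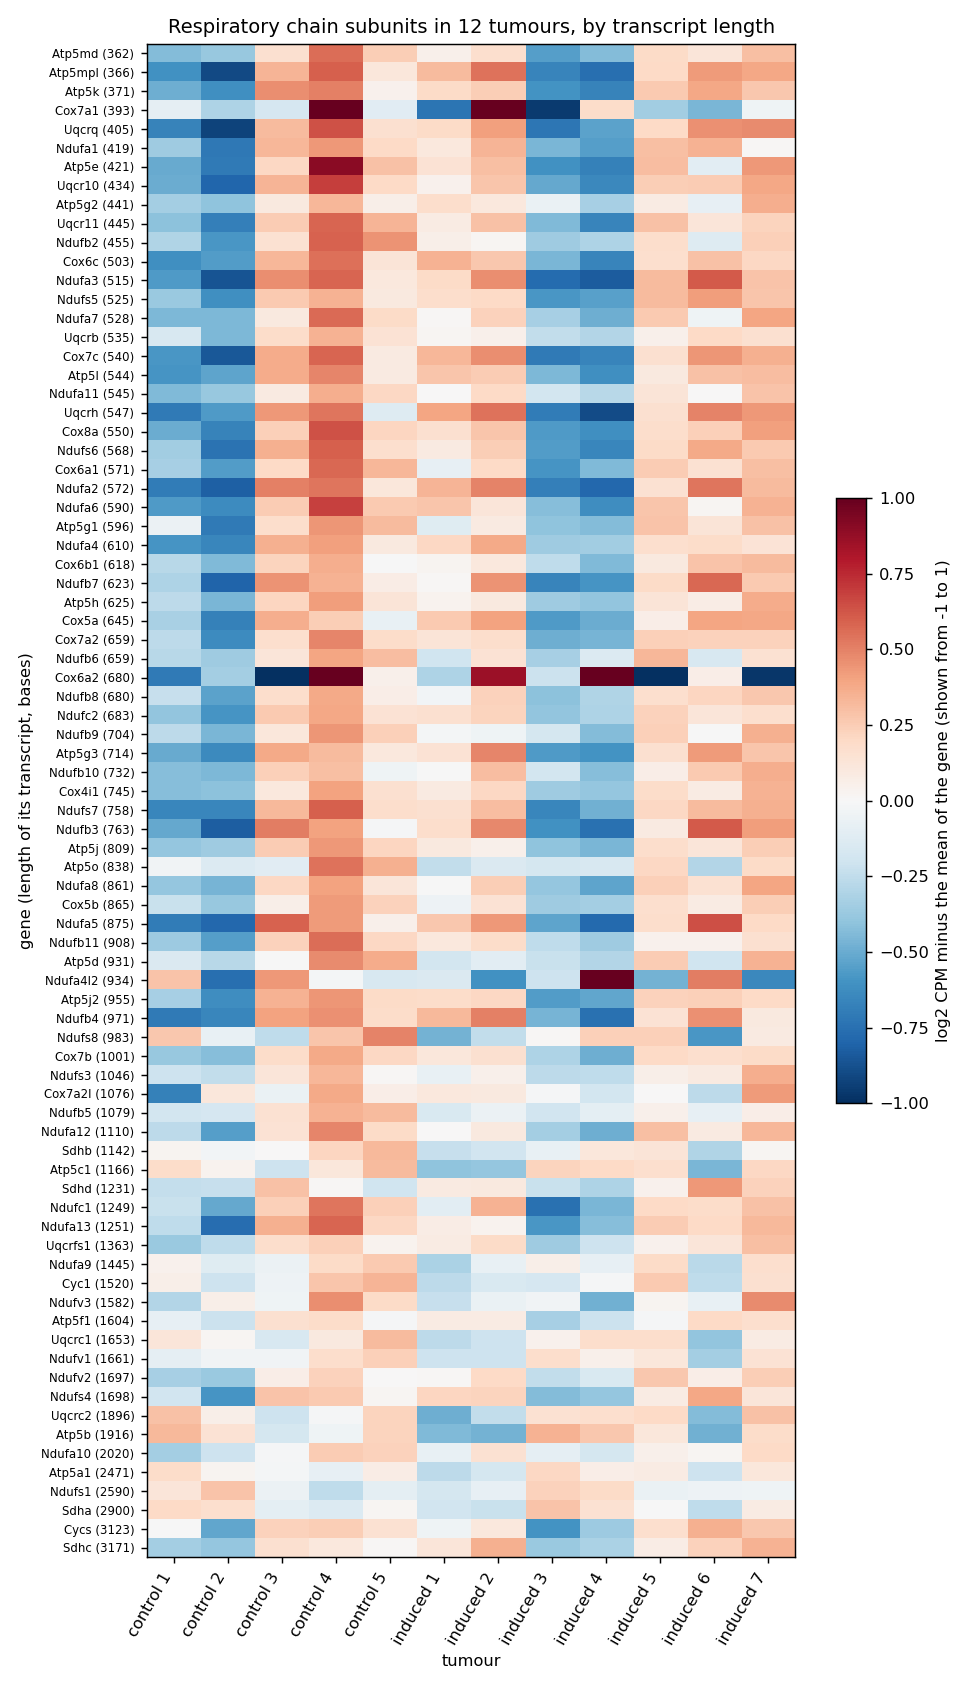
Log2 CPM minus the mean of the gene (colour, shown from -1 to 1) for 80 of the 81 tested members (rows, shortest transcript at the top, length in bases in brackets) in the 12 tumours (columns). Most short members are blue in control 1, control 2, induced 3 and induced 4 and red in control 4, while the longest rows are pale.

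The order moved with transcript length, taken as the shortest well-supported principal transcript of each gene. The 4 tumours were the lowest for 23 of 26 members with transcripts under 600 bases, 21 of 27 from 600 to under 1000 bases, 11 of 22 from 1000 to under 2000 bases and 2 of 6 from 2000 bases. Over all genes the same shares were 41.5%, 36.9%, 22.2% and 8.38%, so length moved with the order outside the respiratory chain as well. Members under 600 bases had a median of -0.62 in control 2 and 0.57 in control 4, and all genes of that length -0.46 and 0.45. The median ratio of highest to lowest tumour was 2.36 for members under 600 bases, 2.09 and 1.65 for the next classes and 1.48 from 2000 bases. Spearman's rho between a member's length and its deviation in a tumour, over the 81 genes of one library, was 0.57, 0.62, 0.58 and 0.58 in control 1, control 2, induced 3 and induced 4. It was -0.71 in control 4 and between -0.54 and -0.01 in the other 7. These points share a library and are given as a description.

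**Figure D3:**
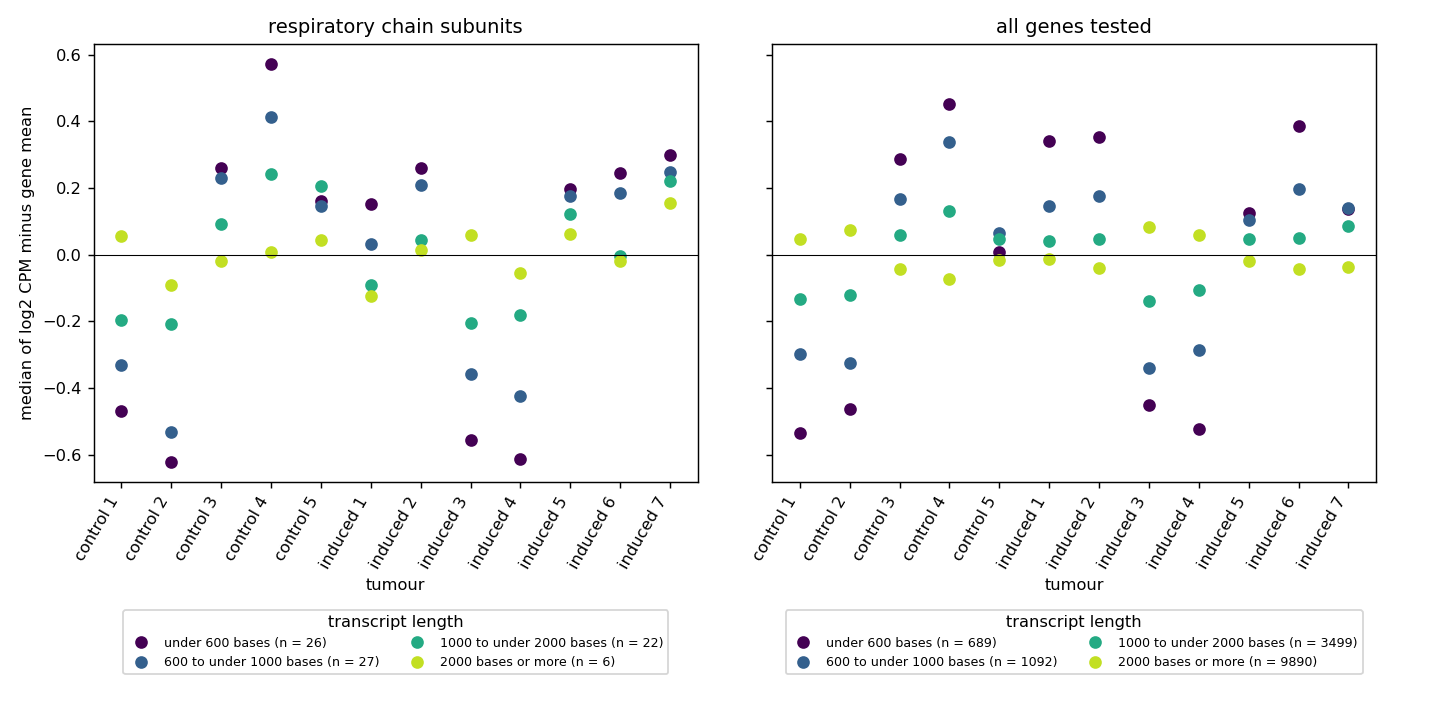
Median of log2 CPM minus the gene mean (vertical axis) in each of 12 tumours (horizontal axis) for 4 classes of transcript length, for the members (left) and for all genes tested (right). In control 1, control 2, induced 3 and induced 4 the shortest class is lowest and in control 4 highest, in both panels.

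After each library's trend with length over all genes was subtracted, the 4 tumours were the lowest for 23 of 81 members (28.4%) beside 12.3% of 15170 genes with a length. The member medians then ran from -0.15 in control 2 to 0.24 in induced 7. Other values moved with the 4 tumours in part. Summed fibroblast markers were highest in control 1 (3206 CPM) and induced 4 (1991 CPM), with 1201 and 1191 CPM in control 2 and induced 3 and 542 to 993 CPM in the other 8. Col3a1 weighs most in that sum, with a control mean of 871 CPM. By the median over the 6 markers of log2 CPM minus the gene's mean, induced 3 (-0.76) lay among the other 8 (-1.50 to -0.0048). Control 1 (3.61), induced 4 (2.16) and control 2 (0.48) lay above them. Summed macrophage markers were at 1088 CPM in control 1, 601 CPM in induced 4, 263 CPM in control 2 and 185 CPM in induced 3, beside 112 to 220.4 CPM in the other 8. All 6 fibroblast and all 6 macrophage markers were above 0 in every tumour. The part of length, of RNA quality and of these cells in the result was not tested.

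The promoters of all members with a known window, inside and outside the shared order, were searched for letters bound by known regulators of respiratory genes. Of the 89 members 68 matched a RefSeq window of 250 bases before to 50 bases after a start (GRCm38.p6), and both strands were read. The NRF1 palindrome, spelled by the capitals of the Cox6a1 stretch below, was in 5 of 68 (7.35%, beside 1.07% of 27025 genes), the ETS family letters CCGGAAG in 17 (25.0%, beside 9.93%) and the YY1 letters AAGATGGCG in 7 (10.3%, beside 1.64%). The E-box CANNTG, whose letters do not fall within the others, was in 69.1% of member windows and 75.0% of all windows. The 27025 genes were not limited to those tested here. They were also not matched to the members by mRNA level or base content, so the shares are not particular to respiratory genes by any test. Among tested holders the 4 tumours were the lowest for 3 of 5 with NRF1, 14 of 17 with ETS and 6 of 7 with YY1 letters, beside 57 of 81 members. The 81 include members without a window, and transcript length was not held equal. These shares therefore cannot show whether the letters go with the order. A match is a description of these windows.

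Promoter stretches outside annotated exons are shown for 4 members, chosen after their values were seen, from 3 members with the shared order and from Ndufb6, which holds ETS letters but lacked the order. Capitals mark the NRF1 palindrome in Cox6a1 and the ETS letters or their reverse complement in the others. They lie on the minus strand at chr5:115348982-115349129 (Cox6a1), chr9:50603850-50603909 (Sdhd), chr10:80406831-80407071 (Uqcr11) and chr4:40279422-40279671 (Ndufb6).
Cox6a1: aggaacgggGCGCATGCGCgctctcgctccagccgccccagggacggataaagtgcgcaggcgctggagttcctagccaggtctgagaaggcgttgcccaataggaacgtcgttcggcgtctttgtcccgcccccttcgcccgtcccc
Sdhd: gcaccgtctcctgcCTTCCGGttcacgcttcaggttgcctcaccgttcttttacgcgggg
Uqcr11: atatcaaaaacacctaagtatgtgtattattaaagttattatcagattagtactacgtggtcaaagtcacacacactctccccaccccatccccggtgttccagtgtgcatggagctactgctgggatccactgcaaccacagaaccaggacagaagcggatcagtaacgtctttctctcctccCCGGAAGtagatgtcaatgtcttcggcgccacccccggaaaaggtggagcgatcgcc
Ndufb6: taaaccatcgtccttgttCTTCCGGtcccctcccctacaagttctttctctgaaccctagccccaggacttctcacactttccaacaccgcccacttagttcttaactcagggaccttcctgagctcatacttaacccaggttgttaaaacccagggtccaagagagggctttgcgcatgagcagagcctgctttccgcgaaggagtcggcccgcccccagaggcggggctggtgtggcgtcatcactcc
Cox6a1 mRNA was at 123, 105, 177, 230.5 and 194 CPM in control tumours 1 to 5 and at 146, 177, 102, 113, 184, 171 and 190 CPM in induced tumours 1 to 7. Its 4 lowest tumours were those named above. For Ndufb6, of whose exonic bases 39.0% also lie in Smim27 on the opposite strand, strand use in counting is not given in the sources.

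The muscle forms of complex IV subunits were high in a few tumours of both groups. Cox6a2, the form of heart and skeletal muscle, was at 7.17 CPM in control 4, 4.10 CPM in induced 4 and 2.11 CPM in induced 2, and at 0.342 to 1.19 CPM in the other 9 tumours. Cox8b, also a muscle form, was at 2.27, 0.997 and 1.03 CPM in these 3 tumours and at most 0.244 CPM elsewhere. Cox7a1 was at 2.86, 0.775 and 1.49 CPM in them and at 0.304 to 0.649 CPM elsewhere. All 3 genes lie on chromosome 7, at 128205435 to 128206387 for Cox6a2, 140898945 to 140900446 for Cox8b and 30184144 to 30186078 for Cox7a1 (GRCm38), and 10.3% of the exonic bases of Cox6a2 are shared with Itgad on the opposite strand. The summed level of 16 skeletal muscle markers was 641 CPM in control 4, 629.8 CPM in induced 4 and 247 CPM in induced 2. It was 161 CPM in induced 3 and 10.6 to 66.7 CPM in the other 8, with 0 or 1 marker at 0 in a tumour. The part of muscle cells in these levels was not tested.

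**Figure D4:**
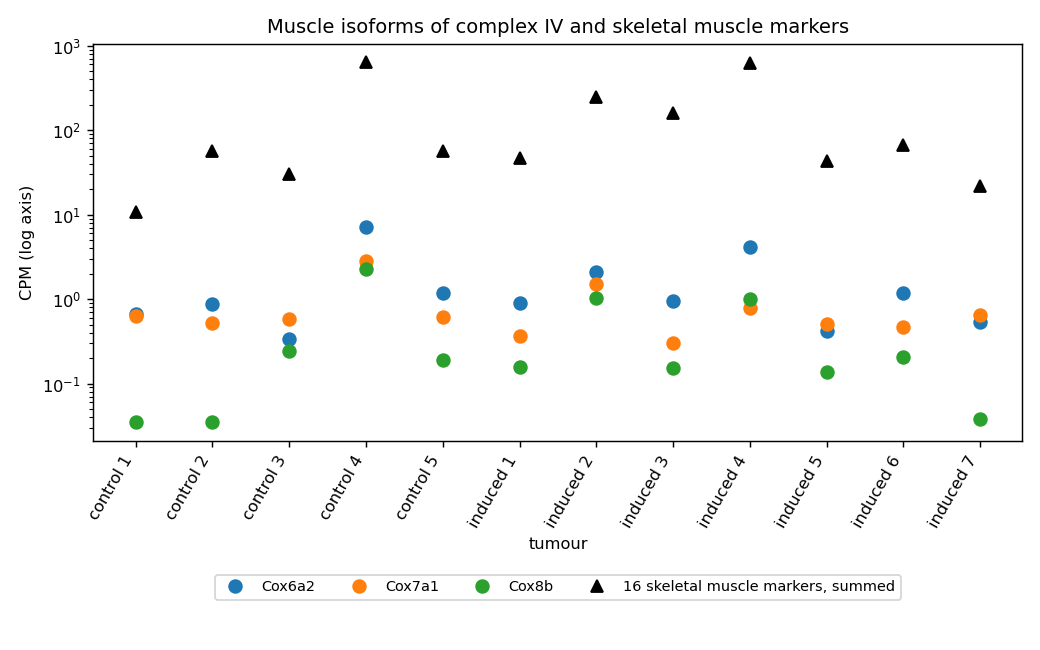
CPM (log axis) of the muscle forms Cox6a2, Cox7a1 and Cox8b and of 16 skeletal muscle markers summed, in each of the 12 tumours. Cox6a2 and the markers are highest in control 4 and induced 4, followed by induced 2.

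As shares of each pair, which do not use library size, the tissue forms stayed minor and did not differ between groups by the test. Cox6a2 made up 0.872% ± 0.955 of Cox6a1 and Cox6a2 per length in control and 0.891% ± 0.949 in induced tumours (SD, n = 5 and n = 7). The share of Cox7a1 beside Cox7a2 was 2.32% ± 1.52 and 1.63% ± 0.949, and that of Cox8b beside Cox8a 0.500% ± 0.777 and 0.568% ± 0.709. Ndufa4l2, a hypoxia-induced form that replaces Ndufa4, was at 0.654% ± 0.275 and 0.808% ± 0.866, with 2.73% in induced 4 alone. Cox4i2, the form of lung and of low oxygen, was at 0.111% ± 0.0573 and 0.149% ± 0.107 beside Cox4i1. The 5 exact permutation tests, two-sided over all 792 splits, gave p = 0.388 for Cox7a1, 0.495 for Cox4i2, 0.771 for Cox8b, 0.914 for Ndufa4l2 and 0.957 for Cox6a2, each 0.957 after Benjamini-Hochberg adjustment over the 5. The smallest p these splits allow is 0.00126. The signs for Cox6a2, Cox8b and Ndufa4l2 turned when single tumours were left out. Without control 4 the difference in Cox6a2 share was 0.437 percentage points.

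Levels could be compared between genes only per length, as CPM per kilobase of transcript. The SDs are over the same 12 tumours, so their overlap does not show equal levels, and genes were not compared within tumours. Atp5b was the highest member at 531 ± 109 (SD over 12 tumours), followed by Cox4i1 at 487 ± 98.8 and Uqcrq at 421 ± 141, and these 3 overlapped within their spread. In complex I Ndufb9 at 149 ± 29.7 and Ndufa7 at 146 ± 35.5 were the highest and overlapped within their spread, as did the lowest tested, Ndufv3 at 22.5 ± 4.51 and Ndufc1 at 18.4 ± 4.73. In complex II Sdhd stood at 117 ± 20.1, Sdhb at 91.9 ± 11.7, Sdha at 47.0 ± 5.86 and Sdhc at 33.1 ± 6.22, although their proteins are known to form 1 unit with a single copy of each. Complex III was lowest at Uqcrc2, 36.0 ± 6.52. Complex V was lowest at Atp5k, 97.7 ± 28.1, and Atp5j2, 98.8 ± 24.0, which overlapped, and Cycs was at 57.6 ± 11.7. The order depends on the length taken for each gene. Per kilobase of all exonic bases Atp5b (240.3) and Cox4i1 (234) were still the highest, while Uqcrq was at 93.1. Ndufb9 (102) then lay below Ndufa2 (116), Ndufc2 (113) and Ndufa8 (112).

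Genes that work with these subunits also had no member past the test. The 13 protein-coding genes of mitochondrial DNA were all higher in induced tumours, beside 49.8% of all genes, with a median log2 fold change of 0.54, and 0 had an unadjusted p under 0.05. They took 1.07% (control 1) to 3.39% (induced 6) of all counts. Their control means ran from 0.360 CPM (mt-Atp8) to 8919 CPM (mt-Co1). Near the low end were also mt-Co3, mt-Co2, mt-Atp6 and mt-Nd4l (0.886 to 1.54 CPM) and mt-Nd3. The part of read counting in these low levels was not tested. The smallest p was that of mt-Nd3, which averaged 3.17 ± 2.10 CPM over the controls (SD, n = 5) and 5.98 ± 3.39 CPM over the induced tumours (SD, n = 7). mt-Nd5, a proton-pumping subunit of complex I, was at 985 ± 355 and 1410 ± 540 CPM, a log2 fold change of 0.52 (SE 0.29). The mitochondrially encoded genes were highest in induced 6 (median deviation 1.05) and induced 2 (0.99). They were lowest in control 1 (-0.77), induced 7 (-0.70), induced 4 (-0.59) and control 2 (-0.49), with -0.28 in control 5 and -0.20 in induced 3. Control 1, control 2 and induced 4 were thus low for the nuclear members as well. Induced 7 (0.27), control 4 (-0.38 here, 0.41 there) and control 5 (0.16 there) were high for the nuclear members. Among regulators of mitochondrial biogenesis 13 of 17 were higher and 4 lower, with a median of 0.05. Gabpb1, a partner of the ETS factor Gabpa, was at 27.1 ± 3.14 and 30.5 ± 2.72 CPM. Of 21 citric acid cycle genes 8 were higher and 13 lower, and their median deviation per tumour ran only from -0.21 to 0.16. Idh3a, a subunit of isocitrate dehydrogenase, was at 82.0 ± 5.78 and 74.6 ± 6.67 CPM.

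Assembly factors put the complexes together without staying in them. Of 15 factors of complex I 5 were higher and 10 lower, of 21 of complex IV 12 and 9, and of 10 of complexes II and III 5 and 5. The complex V list of 5 genes, which holds the inhibitor Atpif1 beside assembly factors, had all 5 higher. In the 4 tumours the complex IV factors had medians of -0.18 in control 1, -0.38 in control 2, -0.35 in induced 3 and -0.24 in induced 4, beside 0.05 to 0.27 in the other 8. Of 13 genes of ubiquinone synthesis 9 were higher and 4 lower. Coq5, a methyltransferase of that path, was at 26.1 ± 2.98 and 23.0 ± 1.70 CPM, and 0 of these lists held a gene with an adjusted p under 0.05 by edgeR. Of 12 hypoxia targets 6 were higher and 6 lower, with a median log2 fold change of -0.0054.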

How the data were processed

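Titles put the 12 tumours in 2 groups, and each column's library name was found in one sample's description. The deposited table holds raw counts, per the file headers, beside the authors' rlog values (log2 scale) and their own test with log2 changes, a signed fold score and p-values. Only the counts were used. The aligner, the counter and how it treated strand and multi-mapping reads are not stated in the labels, so members with processed pseudogenes or overlapping neighbours are uncertain. The build was GRCm38 (mm10), per the submitters' processing notes. The growth and treatment text of the labels describes fat cell differentiation of another cell line, and groups rest on titles and treatment labels.

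Members and lists were chosen with earlier results of these data known. Counts were fitted with edgeR 4.0.16 (R 4.3.3) on all genes: filterByExpr with a minimum count of 10 kept 15199 genes and removed 9917, TMM factors, robust quasi-likelihood F test, Benjamini-Hochberg over all genes, threshold 0.05. Log2 CPM used a prior count of 2. Named members were the 5 smallest p in each direction, isoform pairs, c-ring genes, a list by role and the extremes per length. 1 member is counted with the others, and its own values are not reported here. Lengths came from GENCODE M21 and were chosen after the data were seen. The fit was tested on simulated data. Alternatives used DESeq2 1.42.0, limma 3.58.1, other factors and filters, a replicate block, a length correction with a loess span of 0.3, and left-out tumours.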

Additional observations from a re-analysis of the deposited data

Results flagged for a closer look

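In 10 of 88 sets of values looked at (each named member and each isoform share within a group), one tumour stood apart from the rest of its group by Dixon's criterion. Chance meets it in about 1 of 20 groups of independent, normally distributed values. Here the CPM of a gene and its share were counted as separate sets, so the 88 were not independent. Control 4 accounted for 6 of them, which were Cox6a2, Cox7a1 and Cox8b, each as CPM and as share. It held 7.17 CPM of Cox6a2 beside 0.342 to 1.18 CPM in the other controls, 2.86 CPM of Cox7a1 beside 0.526 to 0.624 CPM and 2.27 CPM of Cox8b beside 0.0347 to 0.244 CPM. Its isoform shares were 2.55% for Cox6a2, 4.97% for Cox7a1 and 1.88% for Cox8b, beside at most 0.697%, 2.04% and 0.271% in the other controls. Among induced tumours, induced 4 held a Cox6a2 share of 2.94% beside at most 0.991%, Ndufa4l2 at 3.84 CPM beside 0.649 to 1.55 CPM, and a Ndufa4l2 share of 2.73% beside at most 0.778%. Induced 2 held 1.49 CPM of Cox7a1 beside 0.304 to 0.775 CPM in the other induced tumours.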

How the results depend on the processing

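Every alternative, from other factors, filters and tools to left-out tumours, called 0 members. The count of members higher and lower in induced tumours moved. With the replicate block it was 18 and 63 with a median of -0.066, with a term for the 4 tumours, added after the data were seen, 21 and 60 with -0.06, without the 4 tumours 13 and 68 with -0.10, and within these 4 tumours alone 46 and 36 with 0.013. The same numbers in both groups mark no shared animal or day in the labels, and same-numbered tumours correlated at -0.29, -0.55, -0.53, -0.60 and 0.37. Control 1 correlated best with induced 4 (0.69) and control 2 with induced 3 (0.75), which are the 4 tumours set apart. That difference could hide a pairing by number, so these correlations cannot decide whether the numbers paired the samples. Leaving out 1 tumour at a time gave 9 to 65 members higher and 17 to 72 lower, and medians from -0.11 (without control 2) to 0.12 (without control 4). The cause was not tested. With total counts alone the log2 fold change turned its sign for Atp5k (-0.0098). With a mean CPM of at least 1 the log2 fold change turned its sign for Atp5k (-0.00062). With limma-voom the log2 fold change turned its sign for Cox4i1 (-0.0065), Ndufa4l2 (-0.14), Ndufs1 (0.020) and Ndufs7 (-0.0064). With the replicate block the log2 fold change turned its sign for Atp5g3 (-0.0086), Atp5k (-0.091), Cox4i1 (-0.014), Cox6a2 (0.17), Cox6c (-0.032), Ndufs1 (0.022), Ndufs7 (-0.049) and Uqcrfs1 (-0.015). With the length correction the log2 fold change turned its sign for Atp5k (-0.063), Cox6c (-0.017), Cycs (0.0028) and Ndufs1 (0.021). Without the 4 tumours the log2 fold change turned its sign for Atp5g2 (-0.036), Atp5k (-0.087), Cox4i1 (-0.049), Cox6c (-0.097), Ndufa4 (-0.083), Ndufa4l2 (-0.35), Ndufs1 (0.043), Ndufs7 (-0.11), Uqcrfs1 (-0.0095) and Uqcrq (-0.039). Leaving out 1 tumour at a time gave ranges across 0 for Atp5g1 -0.24 to 0.014, Atp5g2 -0.016 to 0.17, Atp5g3 -0.024 to 0.21, Atp5k -0.13 to 0.14, Cox4i1 -0.052 to 0.16, Cox6a1 -0.24 to 0.043, Cox6a2 -1.01 to 0.93, Cox6c -0.11 to 0.18, Cox7a1 -0.998 to 0.15, Cox7a2 -0.14 to 0.13, Cox8a -0.15 to 0.18, Cycs -0.15 to 0.055, Ndufa4 -0.052 to 0.20, Ndufa4l2 -0.24 to 0.45, Ndufb9 -0.16 to 0.064, Ndufc1 -0.22 to 0.033, Ndufs1 -0.069 to 0.063, Ndufs7 -0.11 to 0.20, Uqcrfs1 -0.029 to 0.12 and Uqcrq -0.062 to 0.31. For isoform shares the range in percentage points was 0.00653 to 0.06 for Cox4i2, -0.324 to 0.437 for Cox6a2, -0.964 to -0.026 for Cox7a1, -0.165 to 0.412 for Cox8b and -0.167 to 0.272 for Ndufa4l2. Without the 4 tumours the share differences were -0.57 for Cox6a2, -0.44 for Cox8b and -0.084 for Ndufa4l2. Ndufb5 and Sdhb kept their lower values in each refit made of them, from -0.32 to -0.12 and from -0.30 to -0.12. They were picked for the smallest p in these same data, and a kept sign was not particular to them. With 1 tumour left out at a time, Atp5o ran from -0.30 to -0.11 and Ndufs8 from -0.34 to -0.14. Sdhc ran from 0.081 to 0.22 and Sdhd from 0.062 to 0.22. Depth limits the 8 members that did not pass the filter, among them Cox8b with 1 to 50 counts per library.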
